A study of Homo sapiens with 12 samples.

Results

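miR-21 is described here through both mature products of its hairpin, hsa-miR-21-5p and hsa-miR-21-3p (miR-21-5p and miR-21-3p in the following), which are 2 of the 2652 mature miRNAs in the SLAMseq count tables and were taken by name. The libraries came from Huh7, a human hepatocellular carcinoma cell line, in 4 experiments with 3 conditions each, giving 12 libraries. Control cells received DMSO without 4-thiouridine (4SU), DMSO cells received DMSO with 500 µM 4SU, and PlaB cells received pladienolide B, an inhibitor of the splicing factor SF3B1, with 500 µM 4SU, all for 4 h. The sample labels give 500 µM for PlaB as well, a dose that differs from the one in the study's methods, so no dose of PlaB is relied on here. All libraries come from a single wild-type line, and experiments are numbered by the replicate numbers of the labels. The study asked how inhibition of splicing changes the synthesis of mature miRNAs, and set miR-21-5p beside miR-122-5p and miR-17-5p.

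miRNA hairpins are cut from a primary transcript in the nucleus by the Microprocessor and from the exported precursor by Dicer, and the resulting duplex has a 5p and a 3p strand. Usually the guide strand is kept in an Argonaute protein and is stable, whereas the passenger strand is removed. In miR-21 the guide is the 5p strand, one of the best known oncogenic miRNAs, which is raised in many tumours including liver cancer. 4SU enters RNA made during the labelling, and after alkylation it is read as C in place of T, so that the T>C conversion rate (T>C conversions divided by covered T positions, in percent) follows newly made RNA while the read count follows the whole pool.

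Bases 2 to 8 of a miRNA, its seed, pair with targets. The mature sequence of miR-21-5p is shown because it carries the T positions on which its conversion rate rests, and that of miR-590-5p because it was the other RefSeq miRNA with the same seed (capitals). A mature sequence was found in RefSeq for 1 of the 2 miR-21 arms.
miR-21-5p: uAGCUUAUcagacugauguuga
miR-590-5p: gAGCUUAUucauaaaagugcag
In GRCh38.p14, miR-21-5p lies at chr17:59841273-59841294 on the plus strand and miR-590-5p at chr7:74191213-74191234 on the plus strand. Each U is a position where 4SU can be read. miR-21-5p has 22 bases with 8 U, of which 3 are in the seed, and miR-590-5p has 22 bases with 6 U. The seed partner was almost absent from these cells, with 0 to 20.4 CPM (a read count scaled to the same total of miRNA reads in every library) and 1 T>C conversion over the 12 libraries. The annotated region of miR-21-3p has 21 bases with 4 T positions.

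The MIR21 hairpin occupies chr17:59841266-59841337 on the plus strand and is 72 bases long. In the GENCODE 44 annotation it is exonic, in the last exon (exon 12, chr17:59839768-59842255) of the canonical transcript of VMP1, a gene for an endoplasmic reticulum protein of autophagy that spans chr17:59707192-59842255 on the same strand. The hairpin lies in the 3′ UTR of that transcript, 1355 bases after the end of the stop codon. The paper states that the main source of miR-21-5p is an unspliced transcript, with readthrough from VMP1 as a further source. Reads that map to several places hardly touched these values, at most 37 reads (0.00734%) of miR-21-5p in any library and 0 of miR-21-3p.

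Reads counted on miRNAs ranged from 1667668 to 2393680 per library in Control, from 1968612 to 3880241 in DMSO and from 1522210 to 1979696 in PlaB. DMSO replicates 1 and 2, the deepest libraries, hold reads pooled from the first library, a new preparation and a repeat amplification, and results that change without them are given both ways. Tests across miRNAs used the Initial miRNA Dataset of 143 miRNAs. The hepatocyte miRNAs miR-122-5p (55353 to 105331 CPM), miR-192-5p and miR-194-5p were abundant, whereas the 8 markers of blood, muscle, neuronal and mesenchymal cells summed to 97.7 to 168 CPM, nearly all of it miR-143-3p and miR-145-5p. The summed level of those 8 was 98.4 to 168 CPM in Control, 97.7 to 128 CPM in DMSO and 105 to 163 CPM in PlaB, and the defining markers of the other 3 cell types reached 10.2 CPM at most.

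miR-21-5p was the most abundant miRNA of the cells, and neither 4SU nor PlaB changed its read count past the threshold. In Control its CPM was 189206, 307112, 238682 and 199187 in experiments 1 to 4. In DMSO the values were 142623, 251842, 213203 and 189215, and in PlaB 164824, 265473, 191172 and 178256. The 3 conditions overlapped, and experiment 2 was the highest in each of them. miR-21-5p ranked first in 11 libraries and second in DMSO replicate 1, and it took between 14.3% and 30.7% of all reads. The next miRNA in the Control order, miR-92a-3p of the miR-17~92 cluster, had a mean of 135796 CPM, compared with 233547 ± 53494 (SD, n = 4) for miR-21-5p.

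**Figure D1:**
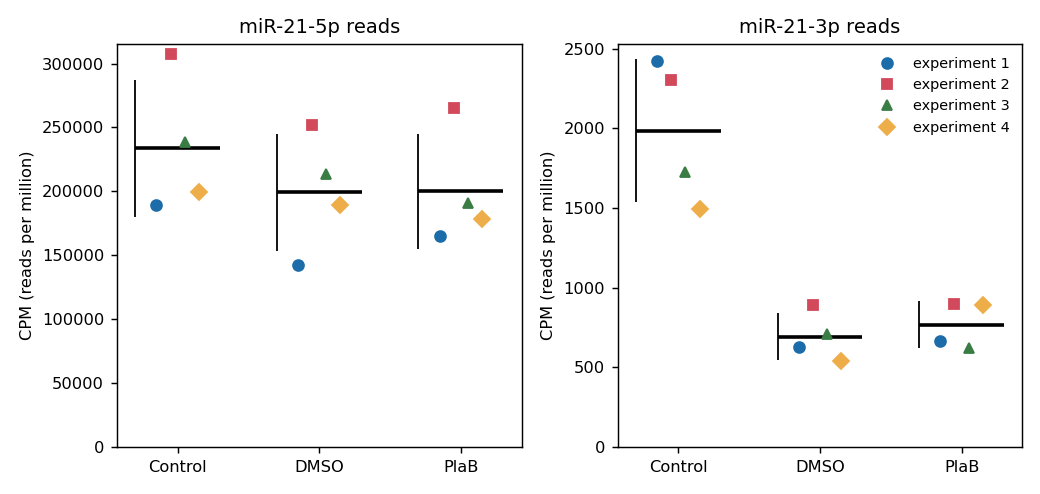
CPM of miR-21-5p (left) and miR-21-3p (right) in each library, by condition and experiment (symbols); horizontal bars are means and vertical bars SD, n = 4. The 3 conditions overlap for miR-21-5p, whereas every Control library lies above every DMSO and PlaB library for miR-21-3p (lowest Control 1492 CPM, highest 4SU library 895 CPM).

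Within an experiment the CPM of miR-21-5p was lower in DMSO than in Control in 4 of 4 experiments (0.754 to 0.950 of Control) and lower in PlaB than in Control in 4 of 4 (0.801 to 0.895). These differences did not pass edgeR's quasi-likelihood test with Benjamini-Hochberg adjustment over the 143 miRNAs, in which the log2 fold change was -0.20 ± 0.233 (SE; adjusted p = 0.723) for DMSO and -0.21 ± 0.233 (adjusted p = 0.891) for PlaB, both against Control. PlaB against DMSO gave -0.01 ± 0.233 in the same edgeR test (95% interval -0.51 to 0.49, adjusted p = 0.998). The sign of that value near 0 changes with the scaling of the libraries.

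miR-21-3p, the passenger strand, was far less abundant and lost most of its reads in the cells that received 4SU. Its CPM in Control was 2426, 2302, 1724 and 1492 in experiments 1 to 4. In DMSO it was 629, 892, 708 and 541, and in PlaB 662, 895, 622 and 893. All 8 libraries with 4SU lay below all 4 Control libraries, with no overlap, as was the case for 4.90% of the 143 miRNAs in DMSO against Control and 4.90% in PlaB against Control. DMSO and PlaB overlapped. The mean fell from 1986 ± 449 CPM in Control to 692 ± 149 in DMSO and was 768 ± 146 in PlaB (SD, n = 4 each).

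In edgeR's quasi-likelihood test miR-21-3p reads fell by 1.50 ± 0.204 on the log2 scale in DMSO against Control (adjusted p = 0.000283) and by 1.36 ± 0.204 in PlaB against Control (adjusted p = 0.000815). In these comparisons 2.80% and 3.50% of the 143 miRNAs were called lower, and miR-21-3p was among them in each. With the replicate number as a block, edgeR called 24 rather than 6 miRNAs, in either direction, in DMSO against Control, and 8 rather than 5 in PlaB against Control. Both comparisons use the same Control libraries. Between PlaB and DMSO the log2 fold change was 0.14 ± 0.201 in the edgeR test (95% interval -0.29 to 0.57, adjusted p = 0.998), with 1 of 143 miRNAs called in that comparison (0.699%). In bulk RNA of this single line, a change in some of the cells and a change in all of them cannot be told apart. CPM values are relative to all other miRNAs of the library.

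The 2 arms come from the same hairpin, so their ratio within a library does not depend on the scaling between libraries. miR-21-5p gave 78.0, 133, 138 and 134 reads for each miR-21-3p read in the Control libraries of experiments 1 to 4. In DMSO it gave 227, 282, 301 and 350, and in PlaB 249, 297, 307 and 200. Control did not overlap with either 4SU condition, and Control replicate 1 stood apart from the other Control libraries.

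The 3p to 5p read ratio in DMSO was 0.411 of that in Control by geometric means (exact two-sided permutation test, 4 against 4 libraries, p = 0.0286, which is the smallest the 70 labelings allow; 0.0413 after Benjamini-Hochberg adjustment over 13 exact tests). PlaB against Control gave 0.454 (exact permutation p = 0.0286, adjusted 0.0413). PlaB against DMSO gave 1.10 (exact permutation p = 0.486), within the spread of the libraries. Paired by experiment, the exact test flips the signs of 4 differences and cannot reach the threshold (adjusted 0.135 at best), here and in each exact test that follows. Without DMSO replicates 1 and 2 the log2 difference between DMSO and Control was -1.46 (adjusted 0.0788, exact permutation test), compared with -1.28 with them. Leaving both out leaves too few labelings for the test to pass.

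The shift between arms was set beside the 22 other hairpins that have both arms in the Initial miRNA Dataset, the minor arm of each being the one with the lower mean CPM in Control. In 14 of the 22 the minor arm had fewer reads per major arm read in DMSO than in Control, with a median log2 shift of -0.18. In 5 of the 22, and in 6 of all 23 hairpins with miR-21 included (26.1%), the DMSO libraries all lay below the Control libraries. The shift of miR-21 (-1.28) was the second largest drop, after miR-374b (-1.49) and ahead of miR-148a (-1.02) and miR-335 (-0.82). Rises were seen as well, up to 1.06 for miR-32. From DMSO to PlaB the median shift of the 22 was -0.06 and that of miR-21 was 0.14.

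Both arms were labelled by 4SU. In Control the T>C rate of miR-21-5p was 0.0246%, 0.0254%, 0.0282% and 0.0197% in experiments 1 to 4, which is the background without 4SU. In DMSO it was 0.389%, 0.358%, 0.321% and 0.261%, and in PlaB 0.316%, 0.270%, 0.250% and 0.227%. The counts behind these rates were large, with 620 to 1493 conversions per Control library, 7750 to 23578 in DMSO and 6066 to 11319 in PlaB. Every 4SU library lay above every Control library, as for 70.6% of the 143 miRNAs in DMSO and 38.5% in PlaB, and within DMSO and within PlaB the order of the experiments was the same, from 1 as the highest to 4 as the lowest.

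The miR-21-5p rate rose 13.6-fold from Control to DMSO in edgeR's quasi-likelihood test of conversions with covered T positions as offset (log2 3.76 ± 0.164, adjusted p = 1.61e-27) and 10.8-fold from Control to PlaB (log2 3.44 ± 0.162, adjusted p = 6.23e-26). Most miRNAs were labelled, 82.5% of the 143 being called higher in DMSO and 53.8% in PlaB, both against Control. The DMSO rate of miR-21-5p (0.332% ± 0.0552) was 40th of 143 and above their median of 0.187%. Its neighbours in that order, miR-217-5p (0.347% ± 0.178) and miR-423-5p (0.324% ± 0.0405), did not differ from it beyond the spread between libraries (SD, n = 4 each). The paper states that its method cannot directly compare how fast different miRNAs are made. The order is therefore one of rates, which also depend on U content and on the standing pool.

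For miR-21-3p the Control rates were 0.0495%, 0.0136%, 0.0240% and 0.0281% in experiments 1 to 4, from 8, 3, 3 and 4 conversions. The DMSO rates were 1.71%, 1.07%, 1.10% and 1.06%, from 166, 124, 63 and 45 conversions, and the PlaB rates were 1.47%, 1.18%, 2.19% and 1.46%, from 59, 83, 86 and 99 conversions. The Control and 4SU libraries did not overlap, whereas DMSO and PlaB did. DMSO replicate 1 was high within DMSO and PlaB replicate 3 within PlaB. The 95% Wilson interval of the DMSO replicate 4 rate was 0.793% to 1.42%, and that of the PlaB replicate 3 rate 1.77% to 2.69%, which cover counting error only.

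In edgeR's quasi-likelihood test the rate of miR-21-3p rose from Control to DMSO by 5.40 ± 0.393 on the log2 scale (42.3-fold, adjusted p = 3.63e-18) and from Control to PlaB by 5.73 ± 0.396 (53.2-fold, adjusted p = 9.78e-19). The sizes rest on 18 conversions in all Control libraries together. With a mean of 1.23% ± 0.316 in DMSO the passenger strand was 8th of 143 miRNAs, between miR-148a-5p (1.29% ± 0.322) and miR-30e-3p (1.12% ± 0.182), from which it did not differ beyond the spread of the 4 libraries. Neither this rank nor the difference between the arms given next measures a difference in synthesis.

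In every DMSO library miR-21-3p had a higher T>C rate than miR-21-5p, by 4.38, 2.97, 3.43 and 4.07 times in experiments 1 to 4. The geometric mean was 3.70 with 0.5 conversions added to each count, and the exact two-sided sign-flip test gave the smallest p that 4 pairs allow, which does not reach 0.05 (0.135 after adjustment). Counted as the share of reads with a conversion, without regard to the 4 T positions of miR-21-3p and the 8 of miR-21-5p, the log2 difference was 0.98, compared with 1.89 per covered T. Without 4SU the ratio of the rates was 2.01, 0.536, 0.852 and 1.42, on both sides of 1. The ratio was higher in DMSO than in Control by 3.06-fold (exact permutation p = 0.0286, adjusted 0.0413). This adjusted value was 0.0675 when any DMSO library, 1 to 4, was left out and 0.144 without DMSO replicates 1 and 2 (exact permutation tests). Leaving out both replicates leaves too few labelings to pass.

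In PlaB the rate of miR-21-3p was 4.65, 4.36, 8.76 and 6.41 times that of miR-21-5p. These values lay above the DMSO values except that PlaB experiment 2 fell just below DMSO experiment 1. The difference between PlaB and DMSO was 1.58-fold and did not pass the threshold (exact permutation p = 0.0571, adjusted 0.0675). Against Control the ratio was 4.84-fold higher in PlaB (exact permutation p = 0.0286, adjusted 0.0413). The comparison of PlaB with DMSO passed with the Control rate subtracted first and without PlaB replicate 2 (adjusted 0.0371 in both, exact permutation tests). In 13 of the 22 other hairpins the minor arm, as assigned in Control, had the higher DMSO rate, with a median ratio of 1.64.

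The number of conversions per converted read was low for both arms. The study's methods state that a mapping identity filter overrides the mismatch limit for miRNA reads. Reads with several conversions can be lost to it, so values near 1 may follow from the processing and not from the arms. For miR-21-5p it was 1.06 to 1.07 in DMSO and 1.07 to 1.10 in PlaB, compared with 1.07 to 1.11 in DMSO and 1.08 to 1.11 in PlaB for the other miRNAs together. In 7 of the 8 libraries with 4SU the value of miR-21-5p was below that of the other miRNAs of its library. For miR-21-3p it was 1 in every DMSO library and at most 1.02 in PlaB. Between 1.94% and 2.92% of miR-21-5p reads carried a conversion in DMSO and between 1.70% and 2.33% in PlaB. For miR-21-3p the shares were 4.23% to 6.81% in DMSO and 4.63% to 8.48% in PlaB. Reads without a conversion can include new RNA that took up no 4SU.

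PlaB lowered the T>C rates of many miRNAs, and both arms of miR-21 stood at the upper end of the order. For miR-21-5p the PlaB rate was below the DMSO rate in 4 of 4 experiments, at 0.812, 0.753, 0.778 and 0.871 of it. The mean was 0.266% ± 0.0379 in PlaB and 0.332% ± 0.0552 in DMSO (SD, n = 4), and the libraries of the conditions overlapped. edgeR's quasi-likelihood test gave a log2 fold change of -0.32 ± 0.147 (95% interval -0.62 to -0.03), with an adjusted p = 0.0659 that did not pass the threshold of 0.05. With the replicate number as a block the edgeR value was -0.32 with an adjusted p = 0.00558, which passed.

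Other libraries or settings also moved this call. The adjusted p of the edgeR test was 0.0459 without Control replicate 3, 0.0371 without Control replicate 4, 0.0169 without DMSO replicate 4 and 0.0334 without PlaB replicate 1. Without DMSO replicates 1 and 2 the log2 fold change was -0.13 (adjusted p = 0.627, edgeR). In this comparison 48.3% of the 143 miRNAs were called lower and 0 (0.00%) higher by edgeR, and 0 were higher at an unadjusted p under 0.05 or by DESeq2.

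For miR-21-3p the PlaB rate was 0.861, 1.10, 1.99 and 1.37 of the DMSO rate in experiments 1 to 4, lower in 1 and higher in 3. The means were 1.57% ± 0.431 in PlaB and 1.23% ± 0.316 in DMSO. edgeR's test gave a log2 fold change of 0.33 ± 0.291 with a 95% interval from -0.25 to 0.91 (adjusted p = 0.360). This interval holds no change, a fall of at most 0.25 and a rise of up to 0.91 on the log2 scale, and 4 libraries per condition do not resolve them. The libraries differed beyond counting error, with 95% Wilson intervals of 0.950% to 1.46% in PlaB replicate 2 and 1.77% to 2.69% in PlaB replicate 3.

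The PlaB/DMSO ratio is the mean PlaB rate minus the mean Control rate, divided by the mean DMSO rate minus the mean Control rate. It was 0.784 for miR-21-5p, with 0.800, 0.735, 0.757 and 0.860 in experiments 1 to 4, and 1.28 for miR-21-3p, with 0.857, 1.11, 2.01 and 1.38. Among the 112 miRNAs called higher in DMSO than in Control whose mean PlaB rate was also above Control, the median ratio was 0.331 and 8 were over 1. miR-21-3p was 3rd, between let-7g-5p (1.66) and miR-340-5p (1.25). miR-21-5p was 14th, between miR-424-3p (0.874) and miR-25-3p (0.760). Without DMSO replicates 1 and 2 the ratio of miR-21-5p was 0.906, and without DMSO replicate 4 it was 0.727.

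**Figure D2:**
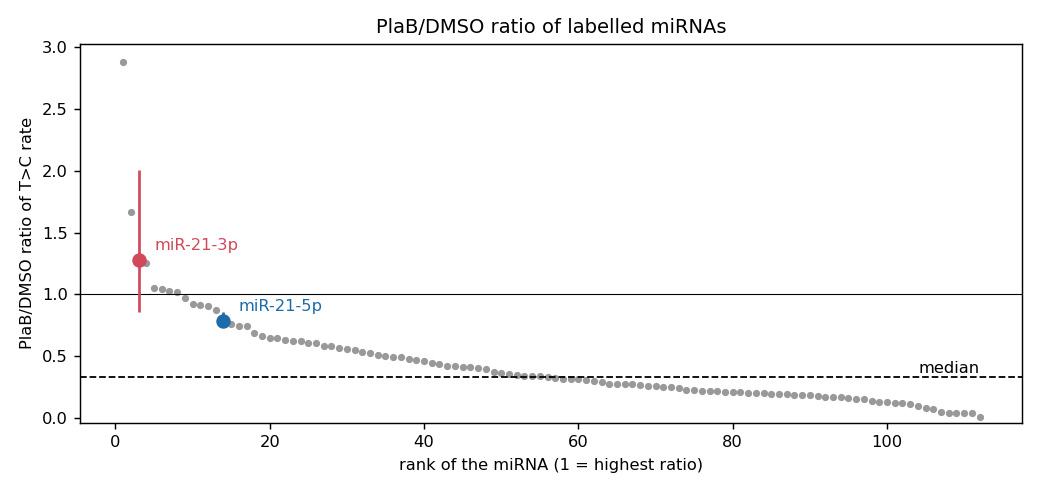
PlaB/DMSO ratio of the T>C rate for 112 labelled miRNAs, ordered from highest to lowest, with the median as a dashed line and a ratio of 1 as a solid line; vertical bars give the range of the miR-21 arms over the 4 experiments. miR-21-3p (1.28) and miR-21-5p (0.784) lie at ranks 3 and 14, above the median of 0.331.

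Against the other miRNAs of the same library, the rate of both arms was higher in PlaB than in DMSO. The mean rate of the other 141 miRNAs was 0.327% to 0.359% in DMSO and 0.161% to 0.173% in PlaB. The rate of miR-21-5p was 1.11, 0.996, 0.908 and 0.797 of that mean in DMSO experiments 1 to 4, and 1.87, 1.57, 1.44 and 1.41 of it in PlaB. The conditions did not overlap, and the change was 1.66-fold (exact permutation p = 0.0286, adjusted 0.0413). For miR-21-3p the values were 4.85, 2.96, 3.12 and 3.24 in DMSO and 8.68, 6.86, 12.6 and 9.06 in PlaB, a change of 2.62-fold without overlap (exact permutation p = 0.0286, adjusted 0.0413). The reference mean itself fell in PlaB, so any miRNA lowered less than that mean moves in the same direction. How many other miRNAs separate without overlap was not counted.

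miR-122-5p, the liver-specific miRNA of hepatocytes, had a rate of 0.286% to 0.370% in DMSO and of 0.0766% to 0.0852% in PlaB. Relative to it, miR-21-5p went from 1.02 in DMSO to 3.30 in PlaB by geometric means, a change of 3.24-fold (exact permutation p = 0.0286, adjusted 0.0413). miR-21-3p went from 3.78 to 19.3, a change of 5.11-fold (exact permutation p = 0.0286, adjusted 0.0413). The groups did not overlap in either, and how many other miRNAs separate from miR-122-5p in this way was not counted. The Control rate of miR-122-5p was 0.0418% ± 0.00579 (SD, n = 4), a large part of its PlaB rate, and with Control rates subtracted the log2 differences were 2.54 rather than 1.69 for miR-21-5p and 3.23 rather than 2.35 for miR-21-3p.

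miR-17-5p, an oncogenic miRNA of the miR-17~92 cluster, had a rate of 0.149% to 0.247% in DMSO and of 0.0408% to 0.0948% in PlaB. Relative to it, miR-21-5p changed by 2.18-fold, with overlap and short of the threshold (exact permutation p = 0.0571, adjusted 0.0675). miR-21-3p changed by 3.44-fold (exact permutation p = 0.0286, adjusted 0.0413), and this adjusted value was 0.0675 when any PlaB library, 1 to 4, was left out. With Control rates subtracted the log2 differences were 1.78 rather than 1.12 for miR-21-5p, still short of the threshold, and 2.47 rather than 1.78 for miR-21-3p. Without DMSO replicates 1 and 2, the called comparisons with the references kept their direction, with an adjusted value of 0.0788 each (exact permutation tests). Too few labelings are then left for any of them to pass the threshold. The comparisons of the 2 arms with these references share libraries and, in part, reference values, and are not independent of each other. For miR-122-5p and miR-17-5p the fall in PlaB was known from the study beforehand.

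miR-21-5p made up a larger part of all T>C conversions in PlaB than in DMSO. Its share was 25.8%, 37.2%, 28.2% and 23.9% in DMSO experiments 1 to 4, and 42.1%, 49.4%, 37.2% and 36.1% in PlaB. The share was higher in PlaB in each experiment, although PlaB experiments 3 and 4 lay below DMSO experiment 2. Its median share of covered T positions was 24.0% in DMSO and 22.2% in PlaB. The share of miR-21-3p in all conversions was 0.139% to 0.249% in DMSO and 0.362% to 0.579% in PlaB.

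Other oncogenic miRNAs were taken from a list of 18, of which 15 were in the Initial miRNA Dataset. The list held members of the miR-17~92, miR-106b~25, miR-221 and miR-183 clusters among others. In edgeR's test of T>C rates 10 of the 15 fell in PlaB against DMSO (8 by DESeq2) and 0 rose, beside 69 of all 143 (48.3%) that fell by edgeR and 66 by DESeq2, with a median log2 fold change of -1.42, compared with -1.23 over all 143 miRNAs. miR-92a-3p fell by 1.48 ± 0.156 (adjusted p = 3.18e-11) and miR-183-5p by 1.77 ± 0.327 (adjusted p = 1.61e-05) on the log2 scale in the edgeR test. miR-25-3p had a value of -0.19 ± 0.179 (adjusted p = 0.386, edgeR) and a PlaB/DMSO ratio of 0.760, close to that of miR-21-5p. The background of miR-25-3p was high, with a mean rate of 0.181% in Control and 0.377% in DMSO, compared with 0.0245% in Control for miR-21-5p. Its log2 fold change, which is not background-subtracted, is made smaller by this. In read counts edgeR and DESeq2 both called 0 of the 15 in each of the 3 comparisons, where edgeR called 6, 1 and 5 of all 143 (DMSO against Control, PlaB against DMSO, PlaB against Control), and at an unadjusted p under 0.05 edgeR had 1 of them, in DMSO against Control.

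The miRNAs whose values followed those of the arms most closely were found by Pearson's r over libraries, as a description. For log2 CPM of miR-21-5p over the 12 libraries these were miR-424-5p (0.828), miR-374a-3p (0.822) and miR-365b-3p (0.796), against a median r of -0.19 over the other 142 miRNAs. For miR-21-3p the r values were 0.873 with miR-148a-5p, 0.783 with miR-374b-3p and 0.779 with miR-32-3p, against a median of -0.07. For log2 T>C rates over the 8 libraries with 4SU, miR-24-3p (0.889), miR-342-3p (0.854) and miR-125a-5p (0.815) were closest to miR-21-5p among 107 miRNAs, against a median of 0.508. The highest r for the rate of miR-21-3p was 0.442, with miR-660-5p, against a median of -0.39. All points share libraries and depth. For CPM, r over the 12 libraries also holds the step from Control to the libraries with 4SU, since condition was not adjusted for.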

How the data were processed

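The deposited tables cover 12 SLAMseq libraries. The authors trimmed reads with Trim Galore, ran the SLAMseq workflow of nf-core, in which SLAM-DUNK mapped them to GRCh38 without a mapping quality filter, masked SNPs, and counted on mature miRNA coordinates of miRBase. The deposited counts give, per miRNA, the covered T positions, the T>C conversions on them, all reads, converted reads and multi-mapping reads. The authors also give CPM and, as a fraction, the T>C conversion rate, which is printed in percent. The tables count some converted reads without a conversion at a covered T, so conversions per converted read can lie below 1.

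The Initial miRNA Dataset holds the 143 of 158 miRNAs over 100 CPM in all 12 libraries that the study marks as present in MirGeneDB. Read counts and conversions (offset by log covered T positions) were tested with edgeR 4.0.16 in R 4.3.3, using TMM factors from all miRNAs for reads, 1 fit of the 12 libraries, quasi-likelihood tests and Benjamini-Hochberg adjustment with a threshold of 0.05. Ratios within libraries were tested by exact two-sided permutation of 4 against 4 libraries (70 labelings) with 0.5 conversions added. DESeq2 1.42.0, other scalings, other filters, left-out libraries and a replicate block were alternatives. The scripts were tested on simulated data. For reads in PlaB against DMSO, edgeR recovered 10 of 10 halved and 10 of 10 doubled miRNAs, and 2 unchanged miRNAs were called as well. For T>C rates it recovered 6 of 10 halved and 4 of 10 doubled in PlaB against DMSO. In PlaB against Control it recovered 1 of 10 of each, so changes of that size in rates can be missed. The simulation used a fixed spread and the levels of the reference condition, which for rates against Control is the background without 4SU. Its recovery counts are therefore not the power of the tests of the miR-21 arms. Python 3.11.15, numpy 2.4.6, scipy 1.17.1, pandas 2.3.3 and matplotlib 3.10.9 were used.

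The methods describe independent experiments with every condition in each. Deviations of log2 CPM correlated in every same-number pair (lowest r 0.274; medians 0.559 to 0.575), against medians of -0.213 to -0.173 for other numbers. For T>C rates the same-number medians were -0.02 to 0.129, against -0.0819 to 0.000981 for other numbers. The numbers were taken as pairs from this design and the read counts. Across the miRNAs the rates show little of this pairing. The rates of the guide strand did follow the numbers, with the same order of experiments in DMSO and PlaB. Its PlaB rate was 0.753 to 0.871 of the DMSO rate within experiments. The fits without the block are given first, and the blocked value where it changes a call.

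Named miRNAs are the miR-21 arms, their seed family, the references the study set beside them, neighbours in the orders, hairpins with both arms (those next to miR-21 by shift), the 3 closest by Pearson's r (for rates, among miRNAs with at least 50 conversions) and a list of oncogenic miRNAs with at most 4 examples. miR-32 (largest rise) was named after its value was seen. Members and lists were chosen with earlier results of these data known. The paper describes trimming of randomized adapter bases and no removal of duplicate reads with them. Wilson intervals cover counting error only. The counting error of a rate is set by its conversions, from 3 to 23578 per library in the miR-21 arms. Libraries can differ by more than that error. The DMSO rates of miR-21-5p ran from 0.261% (Wilson interval 0.255% to 0.267%) in replicate 4 to 0.389% (0.383% to 0.395%) in replicate 1.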

Additional observations from a re-analysis of the deposited data

Results flagged for a closer look

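The highest and lowest library of each condition were compared with the rest of the condition by Dixon's ratio (the gap to the nearest library over the whole range) for 18 groups of 4 libraries, of which 2 exceeded the 95% critical value. Chance alone passes about 1 in 20 groups. The T>C rate of miR-21-3p in DMSO had a ratio of 0.937, with DMSO replicate 1 at 1.71% and the others at 1.06% to 1.10%. This library is combined from several preparations, as is DMSO replicate 2 (1.07%), and the part of that in the value was not tested. The 3p to 5p read ratio in Control had a ratio of 0.951, with 78.0 miR-21-5p reads per miR-21-3p read in Control replicate 1 and 133 to 138 in the others. Without Control replicate 1 the log2 difference between DMSO and Control was -1.09, compared with -1.28 with it.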

How the results depend on the processing

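Across 27 results and 417 alternatives, 368 kept the direction and the side of the threshold (or, for the PlaB/DMSO ratios, moved by less than 1 SD over experiments). This held for every alternative of the read and T>C rate changes against Control in both arms, and of the miR-21-3p changes in PlaB against DMSO, all in the edgeR or DESeq2 fits. The cause of the changes below was not tested, apart from the size limit of the exact tests. The miR-21-5p read change in PlaB against DMSO, near 0, reversed to 0.0386 with RLE size factors, 0.00514 with library totals only, 0.0575 with totals and TMM without miR-21-5p, 0.0386 with DESeq2 and 0.0532 with the 8 libraries only, and left-out libraries gave -0.17 to 0.18 (log2). The miR-21-5p T>C rate change passed the threshold with reads carrying a conversion (-0.34), the 8 libraries only (-0.32) and the replicate block (-0.32), and left-out libraries gave -0.42 to -0.24. Its adjusted p ranged from 0.00558 to 0.627 and passed in 7 of 18 alternatives.

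Under the replicate block the exact tests become sign flips of 4 pairs, which cannot reach the threshold (adjusted 0.135 at best) and say nothing about stability. They left unchanged the log2 differences of the read ratio (DMSO against Control -1.28, PlaB against Control -1.14), the rate ratio (1.62 and 2.28) and the rates in PlaB against DMSO relative to the other miRNAs (0.73 for 5p, 1.39 for 3p), miR-122-5p (1.69 and 2.35) and miR-17-5p (1.78 for 3p). The block changed no other call. Without DMSO replicates 1 and 2, which leaves too few labelings to pass, these were -1.46 for the read ratio and 1.64 for the rate ratio in DMSO against Control, and in PlaB against DMSO 0.88 and 1.51 relative to the other miRNAs, 1.95 and 2.59 to miR-122-5p, and 1.93 for miR-21-3p to miR-17-5p. The PlaB/DMSO ratio of miR-21-5p moved to 0.906, and with left-out libraries from 0.727 to 0.835. The 3p to 5p rate ratio in PlaB against DMSO passed with the Control rate subtracted (0.70). With libraries left out it ranged from 0.46 to 0.80, that of DMSO against Control from 1.30 to 1.89, and miR-21-3p relative to miR-17-5p from 1.60 to 2.07.

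The number of miRNAs called in read counts depended on the filter and tool, for DMSO against Control 6 of 143 as reported, 10 with DESeq2, 24 with the block, 32 of 537 miRNAs passing filterByExpr, 43 of 1530 without a filter and 3 without DMSO replicates 1 and 2. For PlaB against Control it was 5, or 8 with the block, 36 with filterByExpr and 48 without a filter. For PlaB against DMSO it lay between 0 and 5 across the settings without a left-out library. Depth limits the Control rates of miR-21-3p, with 3 to 8 conversions per Control library.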
